A study of Mus musculus with 12 samples.

Results

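The 9 genes described here belong to the BCL2 family of survival and death regulators and were followed in RNA sequencing libraries of mouse splenic CD4+ T cells. They were chosen by name and found by gene symbol, out of 55414 gene records: the prosurvival genes Bcl2, Bcl2l1, Mcl1 and Bcl2a1b, the effector Bak1, and the BH3-only genes Bcl2l11, Bid, Bad and Bmf. The cells came from male wild-type BALB/c mice, 18 weeks old. In the LIP group (ligature-induced periodontitis) a silk ligature had been tied around the maxillary second molars for 14 days, and CTL mice had no ligature. Day 0 libraries were made from uncultured cells. Day 2 libraries came from cells cultured for 2 days with IL-2 at 10 ng/ml, anti-TCRβ at 1 µg/ml and anti-CD28 at 1 µg/ml, as the labels give it. The study's methods state other amounts of IL-2 and anti-TCRβ. The labels of CTL 93 and LIP 96 name anti-CD29, and those of CTL 97 and LIP 97 anti-CD30, in the place of anti-CD28. Each of the 4 groups held 3 libraries: CTL 88, 89 and 94 and LIP 92, 93 and 94 on day 0, and CTL 92, 93 and 97 and LIP 90, 96 and 97 on day 2. No source used here says whether a library came from 1 mouse or a pool, so p-values measure the spread between these libraries.

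The libraries held 6249018 to 12866718 counts each, so that a count of 0 allows a level of up to 0.269 to 0.442 CPM (counts per megacount of the library, scaled by the trimmed mean of M values). Cd4 lay between 426 and 648 CPM and Cd8a at 2.27 CPM or less, and the neutrophil markers S100a8 and S100a9 were at 0 in every library. Other genes of the CD8 T or NK and myeloid lists were detected at low levels, up to 11.1 CPM for Cd8b1, 6.02 CPM for Klrd1 and 5.21 CPM for Itgam. LIP 90 stood apart from the other LIP libraries of day 2: a chi-square per gene was 48.3 against LIP 96 and 38.6 against LIP 97, and 11.9 between the latter pair. CTL 94 on day 0 also differed in immediate early genes, whose summed level was 672 CPM against 1484 and 1301 CPM in CTL 88 and CTL 89. Results that rest on either library are given with and without it.

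BCL2 proteins decide whether the outer membrane of the mitochondrion stays intact. Effectors such as BAK1 and BAX open it and release cytochrome c, which starts the caspases. Prosurvival proteins (BCL2, BCL-XL from Bcl2l1, MCL1 and A1 from the Bcl2a1 genes) hold the effectors in check, and BH3-only proteins (BIM from Bcl2l11, BID, BAD, BMF) bind into the groove of the prosurvival proteins or activate the effectors. Resting T cells depend on BCL2 and MCL1, activated T cells make BCL-XL and A1, and BIM is known for killing T cells when cytokine or antigen signals end. Much of this control acts on the proteins, which RNA counts do not measure.

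The sequence that ties the family together is the core of the BH3 segment, the helix by which death proteins bind survival proteins. In the windows below, each of 45 coding bases (GENCODE transcripts, GRCm39, written 5′ to 3′ on the coding strand), capitals mark the 6 codons that read leucine, any 3 residues, glycine, alanine or serine, and aspartate. They are shown because 8 of the 9 genes, survival and death genes alike, held the pattern exactly 1 time in their coding sequence. The pattern alone is not particular to the family: 34.1% of 21756 coding sequences held it.
Bcl2: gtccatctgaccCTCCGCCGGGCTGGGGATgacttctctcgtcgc
Bcl2l1: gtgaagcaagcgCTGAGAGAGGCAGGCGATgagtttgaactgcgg
Mcl1: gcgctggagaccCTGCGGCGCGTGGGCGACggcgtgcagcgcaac
Bak1: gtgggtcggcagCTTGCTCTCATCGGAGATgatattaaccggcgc
Bcl2l11: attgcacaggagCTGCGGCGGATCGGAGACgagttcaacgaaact
Bid: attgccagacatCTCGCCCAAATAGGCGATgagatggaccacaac
Bad: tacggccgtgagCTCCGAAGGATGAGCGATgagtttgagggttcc
Bmf: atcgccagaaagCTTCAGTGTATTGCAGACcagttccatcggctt

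In Bcl2 this window lies in exon 1 (chr1:106640299-106640343, minus strand) and in Bcl2l1 in exon 2 (chr2:152671611-152671655, minus). The Mcl1 window is in exon 1 (chr3:95566735-95566779, plus), and that of Bak1 in exon 4 (chr17:27241499-27241543, minus). The Bcl2l11 window is in exon 3 (chr2:127989058-127989102, plus). Those of Bid and Bmf are in exon 4 (chr6:120874244-120874288 and chr2:118375575-118375619, both minus), and that of Bad in exon 2 (chr19:6928148-6928192, plus).

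Bcl2a1b, for A1, did not hold the pattern. It is 1 of 3 near-identical gene copies on chromosome 9, whose coding sequences of 519 bases differ at 12 positions. The first 60 coding bases carry 6 of them (in capitals) and show how little separates reads of Bcl2a1b (chr9:89081413-89081472, plus strand) from those of Bcl2a1a (chr9:88839104-88839163, plus) and Bcl2a1d (chr9:88613713-88613772, minus).
Bcl2a1a: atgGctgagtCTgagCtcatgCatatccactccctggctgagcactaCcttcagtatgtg
Bcl2a1b: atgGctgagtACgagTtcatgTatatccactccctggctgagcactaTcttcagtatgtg
Bcl2a1d: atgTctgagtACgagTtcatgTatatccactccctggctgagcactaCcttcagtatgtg

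Bcl2a1b and Bcl2a1d were 98.8% identical and Bcl2a1a and Bcl2a1b 97.9%. Of 370 windows of 150 bases, the read length, in the Bcl2a1b coding sequence, 68 (18.4%) were identical to a stretch of another copy, so the split of reads among the copies is uncertain and the sum of the 3 records is given beside it.

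Resting CTL cells carried the family mainly as Mcl1 and Bcl2 RNA. Per kilobase of the canonical transcript, Mcl1 had a mean of 153 CPM per kb on day 0 in CTL, Bcl2 64.6, Bcl2l11 21.6, Bcl2a1b 11.7, Bak1 9.21, Bcl2l1 7.25, Bad 6.66, Bid 3.29 and Bmf 0.0469. The ranges of Bcl2a1b and Bak1 overlapped, as did those of Bcl2l1 and Bad, and all other neighbours in that order were apart. After 2 days of stimulation the order in CTL cells changed behind Mcl1 (99.6 CPM per kb). Bcl2a1b came second at 56.3, followed by Bcl2l1 at 40.7, Bcl2 at 39.7, Bcl2l11 at 28.9 and Bak1 at 27.6, a run of genes from Bcl2l1 to Bak1 in which each range overlapped the next. Bad (7.48 CPM per kb), Bid (5.94) and Bmf (0.128) stayed below. In stimulated LIP cells Bcl2 came second behind Mcl1, at 69.0 CPM per kb, with a range that overlapped that of Bcl2a1b at 50.2. Bcl2l1 (38.6), Bak1 (30.4) and Bcl2l11 (24.6) followed there, the last 2 with overlapping ranges.

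The question of what stimulation did to these genes was asked within each group of mice, day 2 against day 0, in a fit of all 12 libraries with edgeR's quasi-likelihood test. In CTL cells 6 of the 8 members tested changed, 4 up (Bcl2l1, Bcl2a1b, Bak1, Bid) and 2 down (Bcl2, Mcl1). Bmf was too low to be tested. Culture moved most of the transcriptome: 69% of 15475 genes were called in the same comparison, 35.3% higher and 33.7% lower, so a share of 6 in 8 is near the background. In 7 of the 8 the days did not overlap, against 73.2% of all genes. The median of the 8 members was 0.60 on the log2 scale, against -0.02 over all genes. Markers of other cells moved with the days too. The summed level of the 5 CD8 T or NK markers was 11.5 to 21.8 CPM on day 0 and 5.37 to 15.5 CPM on day 2, and 3 of 4 tested were called lower in each group of mice. That of the 8 myeloid markers was 4.58 to 12.6 CPM on day 0 and 0.685 to 2.18 CPM on day 2, with 3 of 3 tested called lower in each. Of the 6 B-cell markers, 0 were called in CTL and 3 higher in LIP, and of the 10 heat-shock genes 6 were called higher in each group and 3 lower in CTL. The 1 acinar marker tested was called higher in each group, and the 1 platelet marker tested was called lower in CTL only. The part of any of these in the members' values was not tested. In bulk libraries, fewer cells that make a transcript and less of it per cell cannot be told apart.

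**Figure D1:**
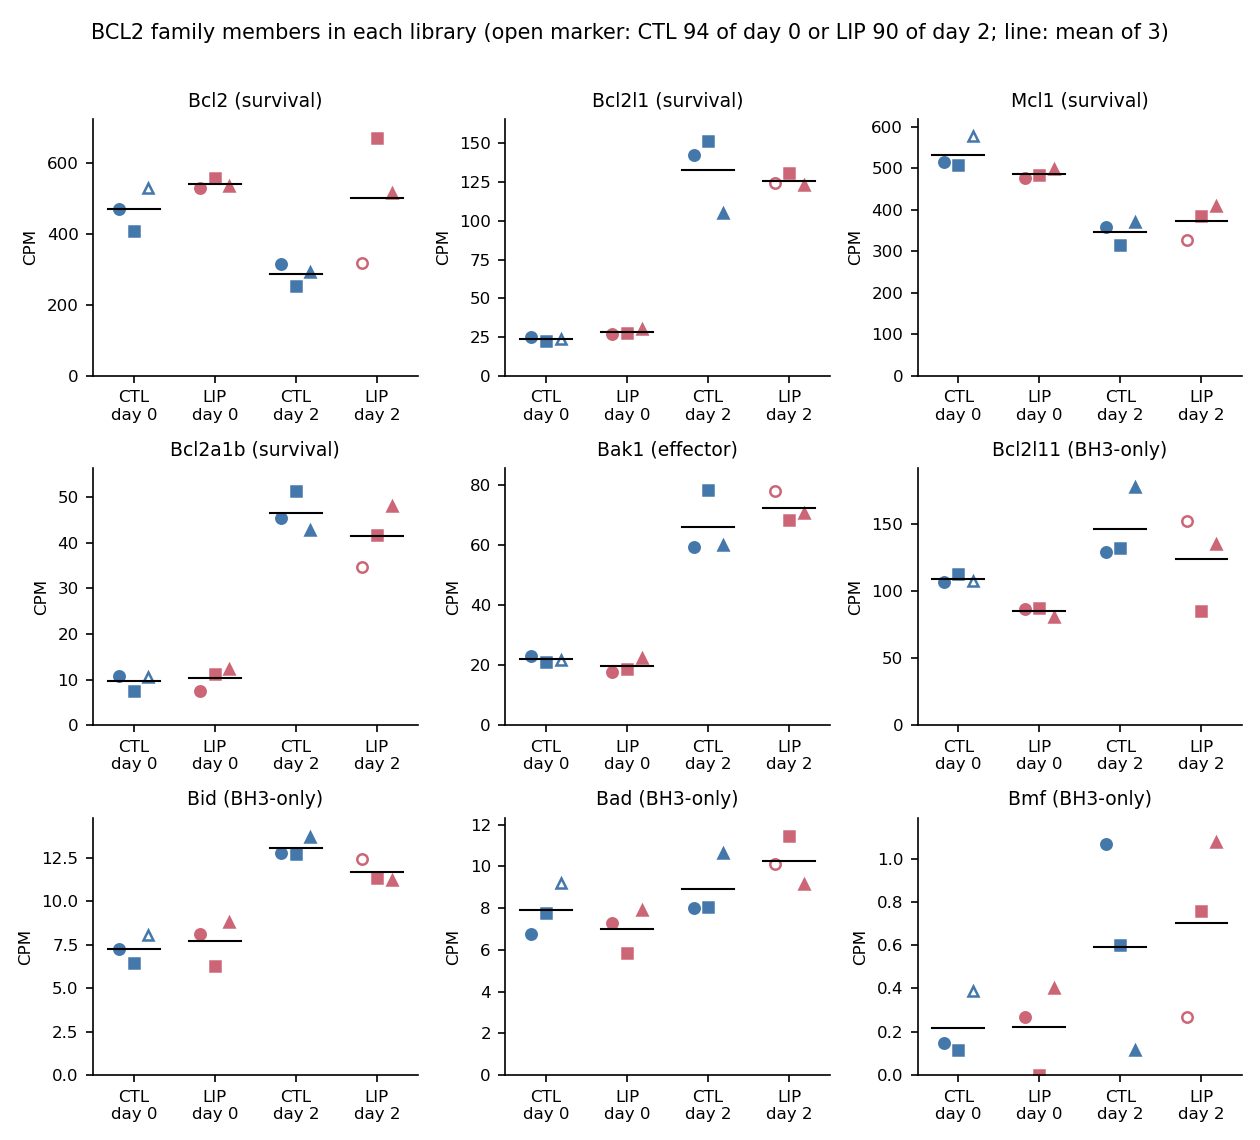
CPM of each of the 9 members (one panel each, y axis in CPM from 0) in the 12 libraries by group (CTL blue, LIP red; day 0 and day 2); horizontal lines are means of 3 libraries and open markers are CTL 94 of day 0 and LIP 90 of day 2. Bcl2l1, Bcl2a1b and Bak1 were higher on day 2 in every library, and Bcl2 on day 2 spans 318 to 668 CPM among LIP libraries.

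Among the 4 prosurvival members, Bcl2l1 had the largest fold. It stood at 24.9, 22.2 and 23.9 CPM in CTL 88, 89 and 94 on day 0 and at 142, 152 and 105 CPM in CTL 92, 93 and 97 on day 2. The lowest stimulated library was thus far above the highest resting one. The rise was 5.47-fold (log2 fold change 2.45 ± 0.13 SE, edgeR adjusted p = 3.52e-09).

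Bcl2a1b rose with it, from 10.8, 7.63 and 10.5 CPM to 45.4, 51.4 and 42.8 CPM. The fold was 4.72 (log2 fold change 2.24 ± 0.18, edgeR adjusted p = 1.57e-07). The 3 copies summed ran from 12.4 to 18.9 CPM in resting and from 57.1 to 65.2 CPM in stimulated CTL cells, and so moved the same way. Bcl2a1b made up 57.0% to 67.5% of the sum in the 6 libraries of day 0 and 71.8% to 78.8% in the 6 of day 2.

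Bcl2 itself fell, from 469, 408 and 528 CPM to 316, 253 and 293 CPM. No library of one day reached those of the other. The log2 fold change was -0.74 ± 0.20 (edgeR adjusted p = 0.00414). Mcl1, whose protein is short-lived and has to be remade constantly, fell from 515, 507 and 577 CPM to 358, 314 and 371 CPM (log2 fold change -0.65 ± 0.10, edgeR adjusted p = 5.31e-05). It remained the most abundant member per kilobase on both days.

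Bak1, the pore-forming effector, rose from 23.1, 21.0 and 21.8 CPM to 59.3, 78.5 and 60.2 CPM. Its 2.92-fold rise had a log2 fold change of 1.55 ± 0.13 (edgeR adjusted p = 2.75e-07).

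Of the BH3-only members, 1 of the 3 tested was called. Bid, which caspase-8 and granzyme B cleave to its active form, rose 1.76-fold, from 7.22, 6.46 and 8.05 CPM to 12.8, 12.7 and 13.7 CPM (edgeR adjusted p = 0.000518). Its gene overlaps Bcl2l13 on the opposite strand, which had up to 981 counts in a library, and no source used here says whether strand was used in counting; a part of Bcl2l13 reads in the Bid value was not tested. Bcl2l11, the BIM gene, lay at 107, 112 and 107 CPM on day 0 and at 129, 132 and 177 CPM on day 2. Those groups did not overlap, but the log2 fold change of 0.39 ± 0.18 missed the threshold (edgeR adjusted p = 0.0667). It passed in a fit of the 6 CTL libraries alone (0.37, edgeR adjusted p = 0.0200).

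Bad, whose protein is held inactive by phosphorylation while growth factor signals last, gave 6.78, 7.75 and 9.22 CPM at rest and 7.99, 8.04 and 10.6 CPM after stimulation. These groups overlapped, and the 95% interval of the log2 fold change ran from -0.29 to 0.54. Bmf, a BH3-only gene of stress and detachment, had at most 10 counts in any library. Its levels were 0.40 CPM or less on day 0 and 1.08 CPM or less on day 2. In LIP 93 it had 0 counts.

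Cells of LIP mice were compared across the same interval. In them 7 of the 8 members tested changed, 6 up and 1 down, against 71.8% of all genes called (36.6% higher, 35.2% lower). Bcl2l1 went from 27.0, 27.9 and 29.9 CPM in LIP 92, 93 and 94 to 124, 131 and 123 CPM in LIP 90, 96 and 97. The rise was 4.33-fold (log2 fold change 2.11 ± 0.13, edgeR adjusted p = 1.08e-08), and the stimulated libraries were close to each other.

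Bcl2a1b rose 3.87-fold in LIP cells, from 7.56, 11.3 and 12.3 CPM to 34.6, 41.6 and 48.1 CPM (edgeR adjusted p = 4.73e-07). Bak1 rose 3.57-fold, from 17.9, 18.8 and 22.6 CPM to 78.1, 68.5 and 70.9 CPM (edgeR adjusted p = 5.43e-08). Mcl1 fell from 476, 483 and 498 CPM to 328, 385 and 409 CPM (log2 fold change -0.42 ± 0.10, edgeR adjusted p = 0.00183). These groups were apart between days, as were those of 6 of the 8 members tested, against 74.7% of all genes.

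Bcl2 was the member without a call in LIP cells. It lay at 527, 557 and 535 CPM on day 0 and at 318, 668 and 514 CPM in LIP 90, 96 and 97 on day 2. The stimulated libraries lay on either side of the resting ones. The log2 fold change was -0.15 ± 0.19 (95% interval -0.57 to 0.27, edgeR adjusted p = 0.496). It was 0.09 without LIP 90 (edgeR adjusted p = 0.556) and -0.42 without LIP 96 (edgeR adjusted p = 0.0408).

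All 3 BH3-only genes tested rose in LIP cells, by small amounts. Bcl2l11 went from 86.5, 87.3 and 80.7 CPM to 152, 85.1 and 135 CPM, with LIP 96 within the range of the resting libraries (log2 fold change 0.51 ± 0.18, edgeR adjusted p = 0.0206). Bid went from 8.10, 6.25 and 8.82 CPM to 12.4, 11.4 and 11.2 CPM (0.56 ± 0.16, edgeR adjusted p = 0.00711). Bad went from 7.29, 5.84 and 7.89 CPM to 10.1, 11.4 and 9.16 CPM (0.51 ± 0.19, edgeR adjusted p = 0.0273).

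All 3 of these calls depended on scaling, and those of Bcl2l11 and Bad also on single libraries. Upper-quartile scaling, which put the median of all genes at -0.32 in LIP and at -0.31 in CTL, left Bcl2l11, Bid and Bad of LIP cells uncalled (edgeR adjusted p = 0.337, 0.193 and 0.366), though they still lay 0.50, 0.56 and 0.52 above that median. The Bcl2l11 call was also lost without LIP 90 (0.32, edgeR adjusted p = 0.0955), without LIP 94 (0.0669) and without LIP 97 (0.0535), and the Bad call without LIP 93 (0.106) or LIP 96 (0.0887).

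**Figure D2:**
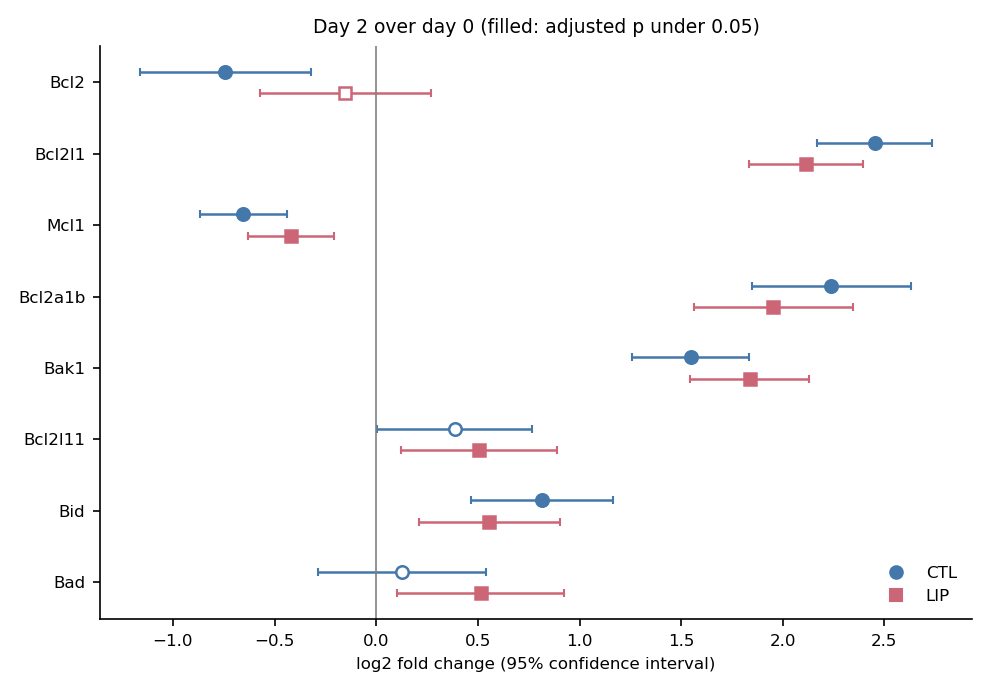
Log2 fold change between day 2 and day 0 of each tested member (x axis, log2 scale; CTL blue, LIP red) with its 95% interval; filled points have an adjusted p under 0.05. Bcl2l1, Bcl2a1b and Bak1 lie between 1.55 and 2.45 in both groups and Mcl1 below 0 in both, while Bad in CTL, at 0.13, was -0.16 under upper-quartile scaling, which is 0.15 above the median of all genes under that scaling.

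The LIP effect in resting cells was asked by comparing the day 0 groups, in a fit of those 6 libraries. No member was called by edgeR, where 0.427% of 14064 genes were (8 higher and 52 lower). At an unadjusted p under 0.05 there were 2 members, Bcl2l1 and Bcl2l11, of the 8 tested, against 13.9% of all genes. In 3 of the 8 the groups did not overlap, against 19.1% of all genes.

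Bcl2l11 was the member nearest to a call. The CTL libraries lay at 107, 112 and 107 CPM and the LIP libraries at 86.5, 87.3 and 80.7 CPM, so that no LIP library reached the CTL range. The log2 fold change was -0.37 ± 0.07, with a 95% interval of -0.52 to -0.21, and the edgeR adjusted p was 0.0525. DESeq2 called it, with an adjusted p of 0.00949, where it called 3.07% of the 6702 genes it gave an adjusted p. Without CTL 94, edgeR gave -0.39 with an adjusted p of 0.0154, in a fit that called 4.59% of genes. Leaving out each of the other libraries in turn gave no call, with log2 fold changes of -0.39 to -0.32 and an edgeR adjusted p of up to 0.314 (without LIP 94). Heat-shock genes moved with this comparison: their summed level (10 genes) was 3351 to 3458 CPM in CTL and 1571 to 1724 CPM in LIP libraries. Of the 9 tested, 8 were called lower in LIP. Immediate early genes (10 genes) summed to 1484, 1301 and 672 CPM in CTL and to 657, 522 and 537 CPM in LIP libraries, with 3 of 9 tested called lower. Markers of CD8 T or NK cells (5 genes) summed to 14.3, 11.5 and 15.5 CPM in CTL and to 13.8, 18.5 and 21.8 CPM in LIP libraries, with all 4 tested higher in LIP and 0 called. Pancreatic acinar markers (6 genes) summed to 0.39 CPM or less in CTL and to 0.675, 10.4 and 4.68 CPM in LIP libraries, too low to be tested. The part of any of these lists in the Bcl2l11 values was not tested.

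Bcl2l1 was at 24.9, 22.2 and 23.9 CPM in resting CTL and 27.0, 27.9 and 29.9 CPM in resting LIP cells. All LIP libraries were higher, yet the log2 fold change of 0.25 ± 0.10 did not pass (edgeR adjusted p = 0.303). Mcl1 was lower in all LIP libraries (476 to 498 CPM against 507 to 577 CPM), again without passing (-0.14 ± 0.07, edgeR adjusted p = 0.417). Bcl2 gave 0.20 ± 0.09 (edgeR adjusted p = 0.361), and the groups overlapped, LIP 92 at 527 CPM lying just below CTL 94 at 528 CPM. It was 0.29 without CTL 94 (edgeR adjusted p = 0.0574) and 0.11 without CTL 89 (edgeR adjusted p = 0.585). For Bcl2a1b, Bak1, Bid and Bad the groups overlapped, with log2 fold changes between -0.19 and 0.10.

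In stimulated cells the LIP effect was asked in the 6 day 2 libraries. No member was called by edgeR, and neither was any other gene (0% of 14041, with a smallest adjusted p of 0.0568). At an unadjusted p under 0.05 there was 1 member, Bcl2, against 16.5% of all genes, and 2 of 8 members had groups that did not overlap, against 21.6%.

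Bcl2 gave the largest difference of the members. The CTL libraries 92, 93 and 97 stood at 316, 253 and 293 CPM and LIP 90, 96 and 97 at 318, 668 and 514 CPM. LIP 90 lay barely above the highest CTL library, and the other LIP libraries far above it. The mean was 287 ± 31.5 CPM (SD, n = 3) in CTL and 500.3 ± 175 CPM in LIP. The log2 fold change was 0.77 ± 0.24, with a 95% interval of 0.22 to 1.33 and an edgeR adjusted p of 0.191. DESeq2 called it (adjusted p = 0.0403, beside 3.62% of the 13490 genes with an adjusted p). Without LIP 90 edgeR gave 1.03 with an adjusted p of 0.00224, in a fit that called 13.9% of genes. Without LIP 96 it was 0.52 (edgeR adjusted p = 0.485), and leaving out each of the 4 remaining libraries in turn gave an adjusted p of 0.262 to 0.572.

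B-cell genes moved with the same libraries. The summed level of 6 B-cell markers was 2.66, 2.76 and 20.2 CPM in CTL 92, 93 and 97 and 0.896, 33.0 and 31.8 CPM in LIP 90, 96 and 97. None of the 6 was called between the groups by edgeR. The B-cell factor Pax5 was at 8.52 and 9.16 CPM in LIP 96 and 97, at 4.00 CPM in CTL 97, and at 0.12 CPM or less in the other day 2 libraries. In CTL 97, whose B-cell sum was above those of the other CTL libraries, Bcl2 was 293 CPM. The summed level of 5 activation markers (Il2ra, Tfrc, Myc, Mki67 and Cd44) was 5195 to 5461 CPM in CTL. In LIP 90, 96 and 97 it was 5973, 4098 and 4560 CPM, with 0 of the 5 called between the groups. Of these, Tfrc, the transferrin receptor of growing cells, was 1614, 289 and 592 CPM in LIP 90, 96 and 97, against 1124 to 1319 CPM in CTL. Il2ra was 1716, 1854 and 1648 CPM in LIP 90, 96 and 97, against 1307 to 1866 CPM in CTL. Mki67 was 1968, 1556 and 1790 CPM, against 1588 to 1968 CPM. The summed level of 5 markers of CD8 T or NK cells was 5.86, 6.604 and 5.37 CPM in CTL and 5.64, 15.5 and 11.2 CPM in LIP 90, 96 and 97, and Cd8b1 was 11.1 and 9.16 CPM in LIP 96 and 97 against 3.31 to 6.12 CPM in the other day 2 libraries. The part of any of these in the Bcl2 values was not tested.

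Of the other members on day 2, Bid was lower in every LIP library (12.4, 11.4 and 11.2 CPM against 12.8, 12.7 and 13.7 CPM), with a log2 fold change of -0.19 ± 0.15 that did not pass (edgeR adjusted p = 0.568). The groups overlapped for Bcl2l1, Mcl1, Bcl2a1b, Bak1, Bcl2l11 and Bad, at log2 fold changes from -0.26 (Bcl2l11, 95% interval -0.77 to 0.24) to 0.18 (Bad, -0.26 to 0.63). With 1 library left out the Bcl2l11 value ran from -0.43 (without LIP 90) to -0.04 (without LIP 96) and that of Bad from 0.10 (without LIP 96) to 0.34 (without CTL 97), with no call. For Bcl2l1 the interval was -0.45 to 0.24.

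**Figure D3:**
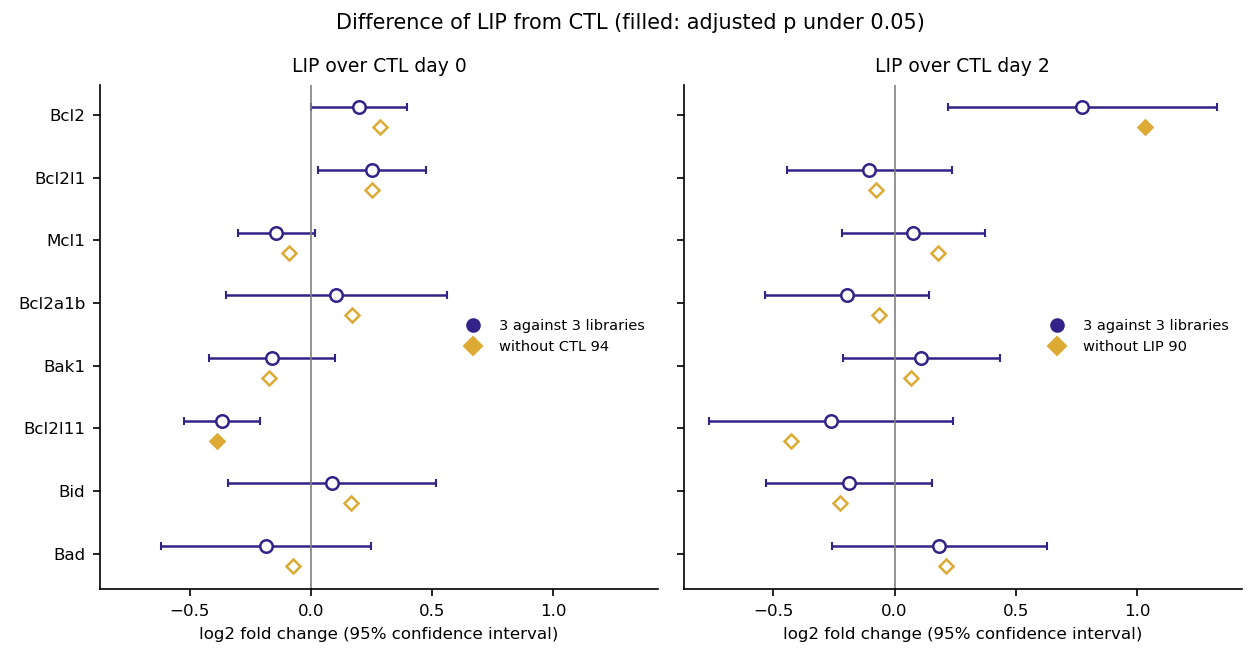
Log2 fold change of LIP against CTL (x axis, log2 scale) of each tested member on day 0 and on day 2, with 95% intervals; diamonds show the value without CTL 94 (day 0) or without LIP 90 (day 2), and filled symbols an adjusted p under 0.05. On day 0 Bcl2l11 lies at -0.37 with an interval below 0, and on day 2 Bcl2 lies at 0.77 and moves to 1.03 without LIP 90.

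Whether the LIP effect differed between the days was tested as an interaction over 12 libraries. No member was called by edgeR, beside 0.0517% of 15475 genes, and none had an unadjusted p under 0.05, against 15.9% of genes. DESeq2 also called 0 members, beside 4.36% of the 12174 genes it gave an adjusted p. For Bcl2 the difference of the effects was 0.59 ± 0.28 (95% interval -0.00 to 1.18, edgeR adjusted p = 0.317). Without LIP 90 it was 0.83 (edgeR adjusted p = 0.00977, beside 10.1% of genes called), and without LIP 96 it was 0.32 (edgeR adjusted p = 0.589). Bcl2l1 gave -0.34 (edgeR adjusted p = 0.391) and Bad 0.39 (edgeR adjusted p = 0.534).

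Ratios within a library describe how death and survival transcripts stood to each other, and are free of scaling between libraries. Bcl2l11 counts were 22.8%, 27.6% and 20.3% of Bcl2 counts in resting CTL cells and 16.4%, 15.7% and 15.1% in resting LIP cells, so the groups did not overlap. In stimulated CTL cells the ratio was 40.8%, 52.1% and 60.5%. In stimulated LIP cells it was 47.8% in LIP 90, inside the CTL range, and 12.7% and 26.2% in LIP 96 and 97, below it.

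The ratio of Bcl2l1 to Bcl2 counts was 4.53% to 5.60% in the 6 resting libraries. It reached 45.1%, 59.8% and 35.8% in stimulated CTL cells, and 38.998%, 19.5% and 23.9% in LIP 90, 96 and 97. Mcl1 counts were 109% to 124% of Bcl2 counts in resting CTL and 86.7% to 93.2% in resting LIP cells, which did not overlap. Stimulated, the Mcl1 ratio was 114% to 127% in CTL and 103%, 57.6% and 79.5% in LIP. As Bcl2 is the divisor throughout, these ratios are not independent of its own values. They were not tested.

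**Figure D4:**
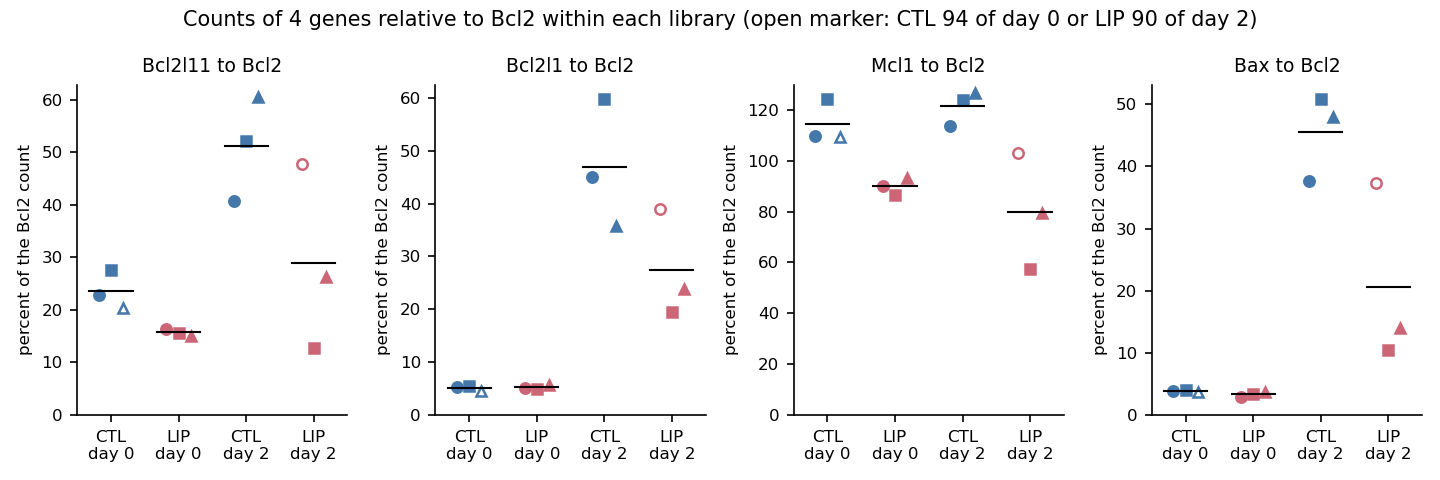
Counts of Bcl2l11, Bcl2l1, Mcl1 and Bax as percent of Bcl2 counts in each library (y axis in percent, from 0), by group; lines are means of 3 libraries and open markers CTL 94 of day 0 and LIP 90 of day 2. For Bcl2l11, Bcl2l1 and Bax, LIP 96 and LIP 97 lie below every stimulated CTL library and LIP 90 within or next to the CTL range.

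The rest of the family was read from a list of 16 genes. In the 12-library fit 12 were tested. Bcl2a1a, Bcl2l10, Bok and Hrk were too low. In CTL cells 9 of 12 rose and 0 fell with stimulation, with a median log2 fold change of 2.01 against -0.02 over all genes, beside the 69% of all genes called. In LIP cells 8 of 12 rose and 0 fell, with a median of 1.39, beside 71.8% of all genes called (36.6% higher).

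Among the other survival genes, Bcl2l2, which encodes BCL-W, rose 10.9-fold in CTL (log2 fold change 3.45 ± 0.26, edgeR adjusted p = 6.70e-08), and Bcl2a1d rose 2.32-fold (edgeR adjusted p = 0.000206). Bax, the effector that moves from the cytosol to mitochondria, rose 6.99-fold in CTL (2.81 ± 0.20, edgeR adjusted p = 4.26e-08) and 4.75-fold in LIP. Of the BH3-only genes, Pmaip1 (NOXA, a partner of MCL1) rose 13.5-fold in CTL, and Bbc3 (PUMA) had a log2 fold change of 1.07. Bnip3, a gene of low oxygen and mitophagy, rose 20.3-fold in CTL. Bcl2l13, the neighbour of Bid, rose 1.32-fold in CTL, a call that upper-quartile scaling did not keep (0.11, edgeR adjusted p = 0.426, with the median of all genes at -0.31).

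Bcl2l14 and Bcl2l15 rose from near 0 in CTL, which leaves their folds ill-determined. Bik, Bnip3l and Bcl2l12 did not pass in CTL (edgeR adjusted p = 0.0861, 0.0985 and 0.173), with log2 fold changes of 1.12, 0.37 and 0.30. In LIP cells Bcl2l15 did not pass either (1.47, edgeR adjusted p = 0.0698).

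Between LIP and CTL edgeR called no other family gene on day 0 (0 of 9 tested, 0 at an unadjusted p under 0.05) or on day 2 (0 of 12, 3 at an unadjusted p under 0.05, beside 16.5% of all genes). Pmaip1 came nearest on day 2. It lay at 48.5, 47.2 and 42.8 CPM in CTL and at 27.7, 21.6 and 18.7 CPM in LIP 90, 96 and 97, with no overlap. The log2 fold change was -1.05 ± 0.16 (edgeR adjusted p = 0.0997, DESeq2 adjusted p = 6.64e-05), and -1.20 without LIP 90 (edgeR adjusted p = 0.000764). DESeq2 called 3.62% of all genes, and edgeR without LIP 90 called 13.9%.

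Bax on day 2 was at 119, 129 and 140 CPM in CTL and at 119, 70.0 and 71.8 CPM in LIP. LIP 90 was again next to the CTL libraries. The log2 fold change of -0.60 ± 0.21 missed the threshold (edgeR adjusted p = 0.217), and it was -0.88 without LIP 90 (edgeR adjusted p = 0.00151). Bnip3 was at 72.6, 61.4 and 75.7 CPM in CTL and at 142, 22.6 and 14.3 CPM in LIP. LIP 90 lay above all CTL libraries and the others below them. Its log2 fold change was -0.24 (edgeR adjusted p = 0.894) with LIP 90 and -1.91 without it (edgeR adjusted p = 0.000498). For both genes the fit without LIP 90 called 13.9% of all genes, against 0% with it. The ratio of Bax to Bcl2 counts was 37.7%, 50.8% and 48.0% in stimulated CTL, 37.3% in LIP 90, and 10.5% and 13.97% in LIP 96 and 97.

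**Figure D5:**
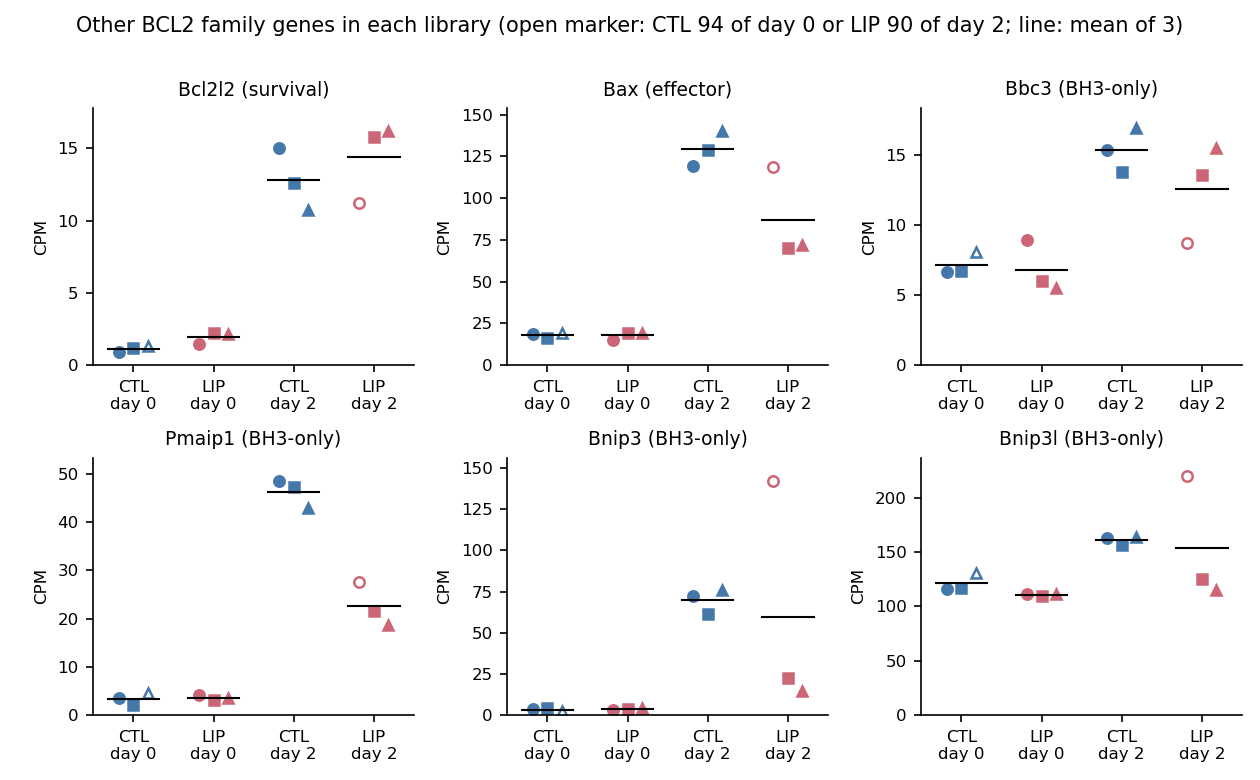
CPM of Bcl2l2, Bax, Bbc3, Pmaip1, Bnip3 and Bnip3l in the 12 libraries by group (y axis in CPM; CTL blue, LIP red); lines are means of 3 libraries and open markers CTL 94 of day 0 and LIP 90 of day 2. On day 2 the open LIP 90 marker lies at the CTL level for Bax (119 CPM) and above it for Bnip3 (142 CPM), with LIP 96 and LIP 97 lower for both.

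Downstream of the mitochondrion, a list of 19 genes (cytochrome c, the apoptosome, caspases and their inhibitors, channels and nucleases) was tested whole. In CTL 14 rose and 3 fell with stimulation, with a median of 1.06, beside 35.3% of all genes called higher and 33.7% lower. Casp6, an executioner caspase, rose 6.49-fold (log2 fold change 2.70) and Vdac1, a channel of the outer membrane, 3.61-fold (1.85). Those that fell were Birc2, an inhibitor of apoptosis and ubiquitin ligase (-1.23), the initiator Casp9 (-0.73) and Diablo, which neutralises such inhibitors (-0.57). In LIP cells 13 rose and 1 fell, Birc2 (-0.50), beside 36.6% higher and 35.2% lower among all genes. Between LIP and CTL neither edgeR nor DESeq2 called a gene of the list on day 0 or on day 2, and 4 of 19 on each day had an unadjusted p under 0.05 in edgeR, beside 13.9% of all genes on day 0 and 16.5% on day 2.

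Among 19 regulators and partners of BCL2 proteins, 12 rose and 1 fell in CTL, beside 35.3% of all genes called higher and 33.7% lower. Gzmb, whose protease cleaves BID, had the highest log2 fold change (6.16), followed by Nfkb1 (1.57), a subunit of the factor that drives Bcl2a1 and Bcl2l1, and Dynll2 (1.37), a dynein light chain that binds BMF. Bag3, a chaperone partner of BCL2, fell (-0.48), and Usp9x (0.22) and Fbxw7 (0.28), enzymes that set the life of MCL1, had the smallest rises. In LIP cells 13 rose and 0 fell, beside 36.6% and 35.2%. On day 0 the list held 1 call between LIP and CTL, beside 0.427% of all genes: Dynll1, the dynein light chain that holds BIM, was 89.7, 92.6 and 100.3 CPM in CTL and 66.1, 66.6 and 74.9 CPM in LIP (-0.45 ± 0.08, edgeR adjusted p = 0.0331). On day 2 edgeR called 0 regulators, with 3 of 19 at an unadjusted p under 0.05 beside 16.5% of all genes. DESeq2 called 1, Gzmb, beside 3.62% of all genes. It lay at 76.1, 54.2 and 64.5 CPM in CTL and at 156, 131 and 119 CPM in LIP 90, 96 and 97, without overlap (1.04 ± 0.16, edgeR adjusted p = 0.0997, DESeq2 adjusted p = 9.68e-06).

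Promoters were searched because several members rose together with stimulation. RefSeq windows of 300 bases around the start (250 before, 50 after; GRCm38.p6) were at hand for 17 starts of 11 genes, the 9 members with Bcl2a1a and Bcl2a1d. The pattern TGANTCA, a loose form of the AP-1 motif with any middle base, was searched on both strands. It was in the windows of the 3 Bcl2a1 copies and in no other of these genes, against 7.81% of 32851 windows. All 3 matches read TGAATCA and lie in a stretch shared by these near-identical copies. The kappaB consensus was in 1 window each of Bcl2l1 and Bmf, against 8.46%. In the lines below capitals mark the TGANTCA match of Bcl2a1b (chr9:89199094-89199130, plus strand) and the kappaB match of Bcl2l1 (chr2:152830935-152830967, minus strand). Each lies before the start that its window was drawn around. The Bcl2l1 match lies after the start of another Bcl2l1 window, chr2:152831679-152831978 (minus strand), which held no match. A match of letters is a description and not a binding site.
Bcl2a1b: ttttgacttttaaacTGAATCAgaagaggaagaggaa
Bcl2l1: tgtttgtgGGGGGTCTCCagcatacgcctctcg

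The genes whose pattern over the 12 libraries was most like that of a member were named by Pearson's r of log2 CPM. These r describe libraries that share their day, and carry no test. Bcl2l1 went with Il2ra and Lta (r = 0.997 for both) and had 3422 of 15474 genes above an r of 0.9, Bcl2a1b went with Pmepa1 (0.995) and Tbkbp1 (0.994), and Bak1 with Tubg1 and Rrp1 (0.995 for both). Mcl1 went with Ifngr1 (0.978) and Zfp746 (0.976), and Bid with Fsd1l and Alpl (0.980 for both). Genes above 0.9 were fewer for the other members: 45 for Bcl2, led by Thap3 (0.964) and Zfp740 (0.955), 13 for Bcl2l11, led by Ints4 and Rbm14 (0.932 for both), and 1 for Bad, Rbm22 (0.904), followed by Psmg4 (0.883).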

How the data were processed

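Splenic CD4+ T cell RNA was sequenced from rRNA-depleted, directional libraries. The authors trimmed reads (Trimmomatic 0.38, with FastQC 0.11.9, per the submitters' processing notes), aligned them with Bowtie2 to GRCm39 and estimated gene levels with RSEM 1.3.0. The annotation release and the strand setting are not given in the sources used here. The deposited values used are RSEM expected counts per gene, unnormalized, which were rounded to whole numbers here because 73267 of them were not whole. The deposited result tables also hold the authors' fold changes and p-values, which were not used, and 2 deposited columns that match no sample were left out. These tables give the symbol Bcl2l2 to the Pabpn1 record, so Bcl2l2 was taken by its identifier.

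Groups came from the sample labels. Genes were filtered with filterByExpr (minimum count 10), scaled by TMM and tested with edgeR 4.0.16 (R 4.3.3) by the quasi-likelihood test, with Benjamini-Hochberg adjustment over all genes tested and a threshold of 0.05. LIP was compared with CTL within each day's 6 libraries. Changes between days and their interaction were fitted over 12 libraries. Errors are SEs from the fit unless an SD is named, and intervals are 95%. DESeq2 1.42.0, other scalings, other filters, summed Bcl2a1 records, other sample sets and leaving out each library were alternatives. The scripts were tested on simulated counts. Positions, lengths and coding sequences are from GENCODE M39. CPM floors use 3 counts and cover counting error only.

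The members and lists were chosen with earlier results of these data known. All members were named whatever their values. Other family genes were read as a list, and for the downstream and regulator lists every gene called between LIP and CTL was named, with the 3 highest and 3 lowest changes among calls in CTL, except that 1 result is not reported here. For likeness, the 2 genes with the highest r were named.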

Additional observations from a re-analysis of the deposited data

Results flagged for a closer look

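Apaf1, the scaffold of the apoptosome that cytochrome c switches on, was marked because its LIP difference ran in opposite directions on the 2 days. On day 0 all LIP libraries (46.8 to 49.3 CPM) were higher than all CTL libraries (40.3 to 46.0 CPM), with a log2 fold change of 0.12 (edgeR adjusted p = 0.559). On day 2 all LIP libraries (99.6 to 120.1 CPM) were lower than all CTL libraries (136 to 158 CPM), with a log2 fold change of -0.40 (edgeR adjusted p = 0.185). The difference of the effects was -0.51 ± 0.15 and did not pass the threshold over all genes (edgeR adjusted p = 0.127, DESeq2 adjusted p = 0.0756). Birc2, an inhibitor of apoptosis, also had values of opposite sign, -0.26 on day 0 and 0.45 on day 2, with groups that overlapped on both days. Its difference of the effects was 0.73 ± 0.22 (edgeR adjusted p = 0.130, DESeq2 adjusted p = 0.0421).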

How the results depend on the processing

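Of the log2 fold changes of the 8 tested members recomputed with all libraries kept or with another tool, 254 kept direction and side of the threshold, 9 gained a call, 4 lost one and 1 reversed. With 1 library left out, 365 values of these members kept both, 7 gained a call, 5 lost one and 7 reversed. The cause of each change was not tested.

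On day 0, 1 member in place of 0 was called under RLE scaling, DESeq2, no filter on low counts, and a filter of 10 counts in every library, always Bcl2l11 (adjusted p = 0.0495, 0.00949, 0.00388 and 0.0450). Leaving out 1 library gave 0 to 1. On day 2, 1 member in place of 0 was called under DESeq2, no filter, and all 12 libraries in one fit, always Bcl2 (adjusted p = 0.0403, 0.0127 and 0.0384), and leaving out 1 library gave 0 to 1. Day 2 against day 0 in LIP gave 4 members in place of 7 under upper-quartile scaling (3 higher, 1 lower), which gave Bad in CTL a reversed value of -0.16, though 0.15 above the median of all genes (-0.31). Leaving out 1 library gave 6 to 7 calls in LIP, 6 to 7 in CTL, and 0 to 1 for the difference of the LIP effect. Shares of all genes called moved with the setting too. On day 0 they were 0.427% in the main fit, 3.07% under DESeq2 and 4.59% without CTL 94. On day 2 they were 0%, 3.62% under DESeq2 and 13.9% without LIP 90. For the difference of the LIP effect they were 0.0517% and, without LIP 90, 10.1%. Shares under the remaining settings are not given here, so those member calls stand without a background.

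The log2 fold changes that crossed 0 with a library left out were not called at the crossing. On day 0 they were Bcl2a1b (-0.047 without CTL 89, -0.030 without LIP 94, up to 0.28) and Bid (-0.0093 without LIP 94, up to 0.22). On day 2 it was Bcl2l1 (0.0026 without CTL 93, down to -0.24). Between days they were Bad in CTL (-0.018 without CTL 97, up to 0.28) and Bcl2 in LIP (0.090 without LIP 90, down to -0.42 without LIP 96, which was called). For the difference of the LIP effect it was Bcl2l11 (-0.073 without LIP 90, up to 0.34). The Bad call in LIP was lost with 10 counts required in every library (adjusted p = 0.0519). Bcl2l11 in CTL was called with no filter (adjusted p = 0.00643), in the fit of 6 libraries, and without CTL 92, LIP 90 or LIP 96.

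DESeq2 gave no adjusted p on day 0 for Bcl2a1b, Bak1, Bid and Bad. Bmf, tested only with no filter, was not called. No paired analysis was possible because the groups compared share fewer than 2 replicate numbers.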
